A study of Mus musculus with 26 samples.

Results

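Wnt ligands are secreted, lipid-bearing signalling proteins, and 10 of the mouse Wnt genes were followed here in mesenchyme of the developing reproductive tract: Wnt2, Wnt2b, Wnt4, Wnt5a, Wnt5b, Wnt6, Wnt7a, Wnt9a, Wnt11 and Wnt16. The members were chosen by name, and each matched 1 row by Ensembl and Entrez identifier in both gene count tables, 10 of 41442 rows per table. All 10 passed the filter on low counts in both tables, among 17858 genes tested in the fetal table and 16195 in the uterine table.

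RNA-seq was done on cells sorted for a red Tomato reporter. In the 4 fetal groups the cells were Gli1+ cells of the mesonephros, the embryonic tissue that holds the Wolffian and Müllerian ducts. They came from Gli1-CreER; Rosa-Tomato embryos, female or male, at E14.5 or E16.5 (day of embryonic development), with 3 libraries each. In the 2 uterine groups the cells were Gli1+ cells (Gli1-CreER; Rosa-Tomato) or Amhr2+ cells (Amhr2-Cre; Rosa-Tomato) of the neonatal uterus at E19.5, also 3 libraries each. Per the labels, dams of both genotypes were injected on E12.5 and again on E13.5 with 1 mg of tamoxifen, the drug that activates CreER. All 6 groups thus carried the reporter, a Cre transgene and this exposure. A Gli1-CreER label marks cells that expressed the hedgehog target Gli1 around the time of injection and their descendants, whereas Amhr2-Cre marks cells of the anti-Müllerian hormone receptor lineage. An ATAC-seq peak list, which gives stretches of accessible chromatin, covered the 4 fetal groups together and carried no value per sample. The labels do not say which animals or litters went into a library, so p-values measure the spread between these libraries, which may be technical.

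Wnt proteins are given a lipid by Porcn and carried out of the cell by Wls. They bind Frizzled receptors with Lrp5 or Lrp6 to stabilise β-catenin (the canonical branch), or with Ror or Ryk co-receptors to act on cell shape and polarity (the non-canonical branch). In the female tract, Wnt4 is known for Müllerian duct formation, Wnt5a for patterning and outgrowth from the mesenchyme, and Wnt7a for signalling from the duct epithelium to the mesenchyme. Wnt11 is known for kidney duct branching, Wnt9a for joint and skeletal development, and Wnt2 and Wnt2b for lung specification.

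The labels held in the defining genes. Collagen and other mesenchyme markers were abundant in every group, with a summed level of at least 27663 CPM (counts per 1000000 reads, on library sizes scaled by TMM, the trimmed mean of M-values). At E14.5 Gli1 was at 184 CPM in females and 228 in males, and at E16.5 at 50.7 and 208 CPM (means, n = 3). Gli1 was at 10.5 and Amhr2 at 11.1 CPM in uterine Amhr2+ cells, against 17.9 and 4.10 CPM in uterine Gli1+ cells. X-inactivation and Y-linked transcripts contradicted no sex label, though traces were present at E14.5. Y-linked Ddx3y reached 2.17 CPM in an E14.5 female library, against at least 126 CPM in E14.5 males. The X-inactivation transcript Xist reached 16.2 CPM in an E14.5 male library, against at least 3619 CPM in E14.5 females. Library totals were 23382983 to 64602477 counts in the fetal and 28709191 to 37541045 in the uterine table. Among neural markers, Stmn2 had group means of 5.69 to 20.6 CPM, and the neural crest marker Sox10 was under 0.1 CPM in every group. Germ cell markers summed to 1.93 to 8.27 CPM, with Pou5f1 and Dppa3 under 0.1 CPM in every group and Ddx4 at 5.87 CPM in uterine Gli1+ cells, against 0.608 in Amhr2+ cells. Of the 4 germ cell markers tested in the fetal table, 1 passed between the sexes at E14.5, against 6.28% of all genes. At E16.5 2 passed, against 27.3% of all genes, and the markers that passed were all lower in females. Ddx4 was among them at both ages, at 0.549 against 1.82 and 0.577 against 1.53 CPM (edgeR adjusted p = 0.00587 and 0.00356), and their part in the ligand differences was not tested. A change in a sorted population can reflect fewer cells of one kind or less RNA per cell, and these cannot be told apart.

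Upstream sequence of 4 members is shown first, because these genes differed between groups and represent starts with and without an accessible peak. Each run is the 250 bases before the gene's start in RefSeq, build GRCm38.p6, written 5′ to 3′ on the gene's strand, with bases under a peak in capitals. The Wnt11 stretch, chr7:98834862-98835111 on the + strand, had 172 of its bases under a peak. The Wnt9a stretch, chr11:59306680-59306929 on the + strand, had 216. The Wnt16 stretch, chr6:22287977-22288226 on the + strand, and the Wnt7a stretch, chr6:91411354-91411603 on the - strand, had 0.
Wnt11: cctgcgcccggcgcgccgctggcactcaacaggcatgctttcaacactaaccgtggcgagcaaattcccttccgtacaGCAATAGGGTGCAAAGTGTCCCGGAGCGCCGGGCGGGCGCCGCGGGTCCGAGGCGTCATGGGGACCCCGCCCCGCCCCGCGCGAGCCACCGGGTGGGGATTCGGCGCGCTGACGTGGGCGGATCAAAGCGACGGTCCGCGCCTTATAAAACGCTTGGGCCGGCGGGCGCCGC
Wnt9a: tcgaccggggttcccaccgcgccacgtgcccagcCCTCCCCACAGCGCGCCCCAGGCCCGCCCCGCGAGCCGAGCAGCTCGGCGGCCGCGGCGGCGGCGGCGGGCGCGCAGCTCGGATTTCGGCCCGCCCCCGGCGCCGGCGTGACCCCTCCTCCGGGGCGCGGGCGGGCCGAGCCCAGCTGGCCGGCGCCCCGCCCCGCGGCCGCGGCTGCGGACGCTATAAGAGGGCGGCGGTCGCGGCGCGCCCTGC
Wnt16: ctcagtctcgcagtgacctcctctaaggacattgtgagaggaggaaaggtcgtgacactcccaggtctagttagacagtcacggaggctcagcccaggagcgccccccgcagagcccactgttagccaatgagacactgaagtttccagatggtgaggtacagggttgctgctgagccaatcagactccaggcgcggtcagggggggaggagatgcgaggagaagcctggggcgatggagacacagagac
Wnt7a: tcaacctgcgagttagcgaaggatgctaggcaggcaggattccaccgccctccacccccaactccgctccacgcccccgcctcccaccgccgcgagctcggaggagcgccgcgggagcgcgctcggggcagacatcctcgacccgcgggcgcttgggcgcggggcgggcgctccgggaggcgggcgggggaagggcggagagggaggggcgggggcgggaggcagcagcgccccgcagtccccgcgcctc

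Promoters of 9 of the 10 members, 12 in all, were matched by symbol in the RefSeq promoter table, and Wnt5a was the member without a match. They were searched on both strands, from 250 bases before to 50 bases after the start, for the TCF/LEF motif CTTTGAT, the recognition letters of the DNA-binding partners of β-catenin, and for the GLI motif GACCACCCA. CTTTGAT was present in 2 of the 12, in 1 of the Wnt5b promoters and in the first Wnt11 promoter printed above, where it lay 51 to 45 bases before the start on the other strand. Of all 32851 promoters in the table, 3.729% held it. GACCACCCA was in 0 of the 12 and in 0.253% of all promoters.

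Levels of different genes were compared per length, as CPM per kb of the exons of all transcripts joined (GENCODE vM21 gene models). Wnt5a stood first in all 6 groups, and Wnt4 stood second in all but E16.5 males, where it overlapped Wnt6. In E14.5 females Wnt5a had 89.1 ± 0.972 and Wnt4 55.1 ± 7.47 CPM per kb (mean ± SD, n = 3), followed by Wnt5b at 12.9, Wnt11 at 11.02 and Wnt6 at 9.76. Wnt9a at 4.93 and Wnt2b at 4.28 came next, and Wnt2, Wnt7a and Wnt16 lay under 1 CPM per kb. The libraries of no neighbouring pair in that order overlapped in E14.5 females. The order of Wnt9a and Wnt2b depended on the length used. With the longest transcript in place of the joined exons, Wnt2b at 5.42 stood above Wnt9a at 4.94, again without overlap. In E14.5 males Wnt6, at 14.2 CPM per kb, overlapped Wnt5b at 12.3 for the third place, and Wnt9a at 9.22 stood above Wnt11 at 7.50. With the longest transcript these males had Wnt9a at 9.25 and Wnt11 at 8.99, which overlapped.

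At E16.5 the order was less spread among the middle members. In E16.5 females Wnt11 at 9.40 CPM per kb overlapped Wnt6 at 9.16, and Wnt5b at 7.70 overlapped Wnt9a at 7.58, while at the bottom Wnt7a at 0.231 overlapped both Wnt16 at 0.274 and Wnt2 at 0.161, which did not overlap each other. In E16.5 males Wnt4, at 13.8 CPM per kb, overlapped Wnt6 at 13.6, so that the second place was shared, and with the longest transcript in place of the joined exons Wnt6 stood above it, at 14.4 against 13.8. In the same males Wnt2b at 5.24 overlapped Wnt11 at 4.25. In the uterus Wnt5b held the third place in both populations, at 10.02 CPM per kb in Amhr2+ and 14.6 in Gli1+ cells. Wnt16, with means at or below 0.274 CPM per kb in every fetal group, was at 5.85 in uterine Amhr2+ cells, where it overlapped Wnt9a and Wnt6, and at 2.73 in Gli1+ cells. The 2 tables were normalized and made with different kits, so levels across them are set side by side without a test.

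**Figure D1:**
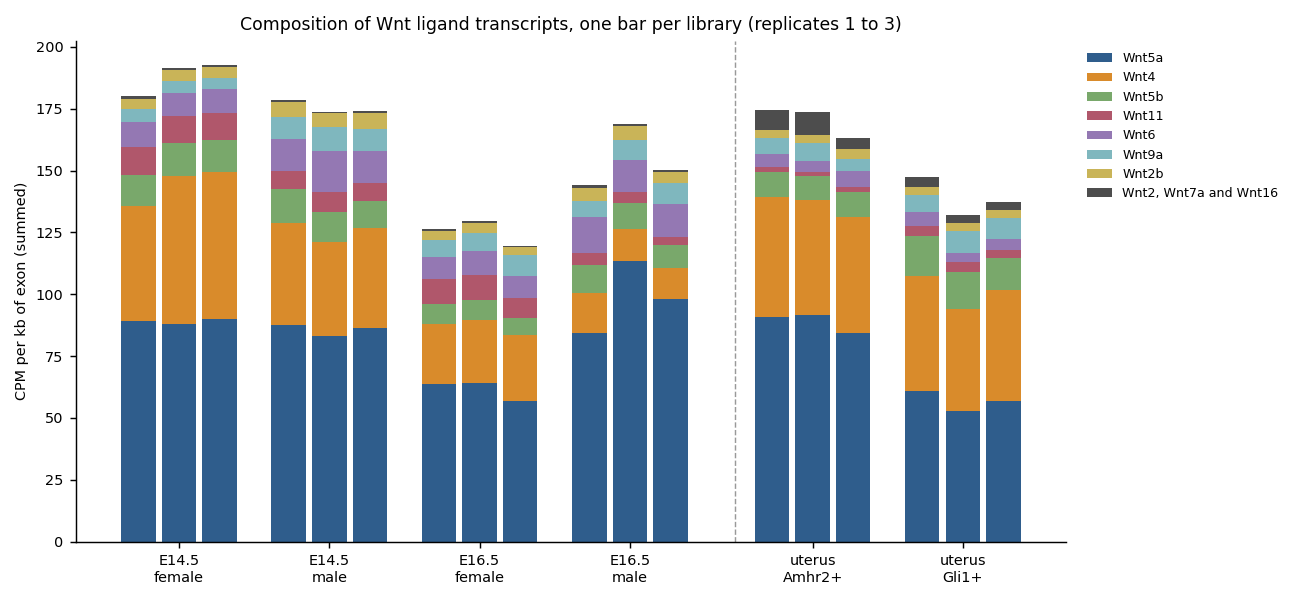
Stacked bars give, for each library, the CPM per kb of exon of Wnt5a, Wnt4, Wnt5b, Wnt11, Wnt6, Wnt9a and Wnt2b, with Wnt2, Wnt7a and Wnt16 summed in dark grey, and the dashed line parts the separately normalized fetal and uterine tables. The Wnt4 segment was smallest in the E16.5 male libraries, where Wnt5a made up 58.5% to 67.1% of the bar, and the grey segment was visibly tall only in the uterine libraries.

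The balance between the leading ligands differed between groups. Wnt5a made up 47.4% ± 1.83 (SD, n = 3) of the summed ligand CPM per kb in E14.5 females, 48.8% ± 0.948 in E14.5 males, 49.2% ± 1.58 in females of E16.5 and 63.7% ± 4.56 in males of that age. The E16.5 male libraries lay above all other fetal libraries. Wnt4 transcripts per 100 Wnt5a transcripts, on the same per-length scale, were 52.2, 67.6 and 65.8 in the E14.5 female libraries, 47.1, 45.6 and 46.5 in E14.5 males, 37.8, 39.9 and 47.3 in females of E16.5 and 19.2, 11.5 and 12.4 in males of that age. Females lay above males at both ages without overlap. In the uterus the ratio was 53.5, 50.6 and 55.3 in Amhr2+ and 76.5, 77.8 and 78.2 in Gli1+ cells. These shares are descriptions, with no test run on them. With the longest transcript in place of the joined exons, the Wnt5a share spanned 42.3% to 64.5% over the 6 groups, in place of 40.9% to 63.7%.

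**Figure D2:**
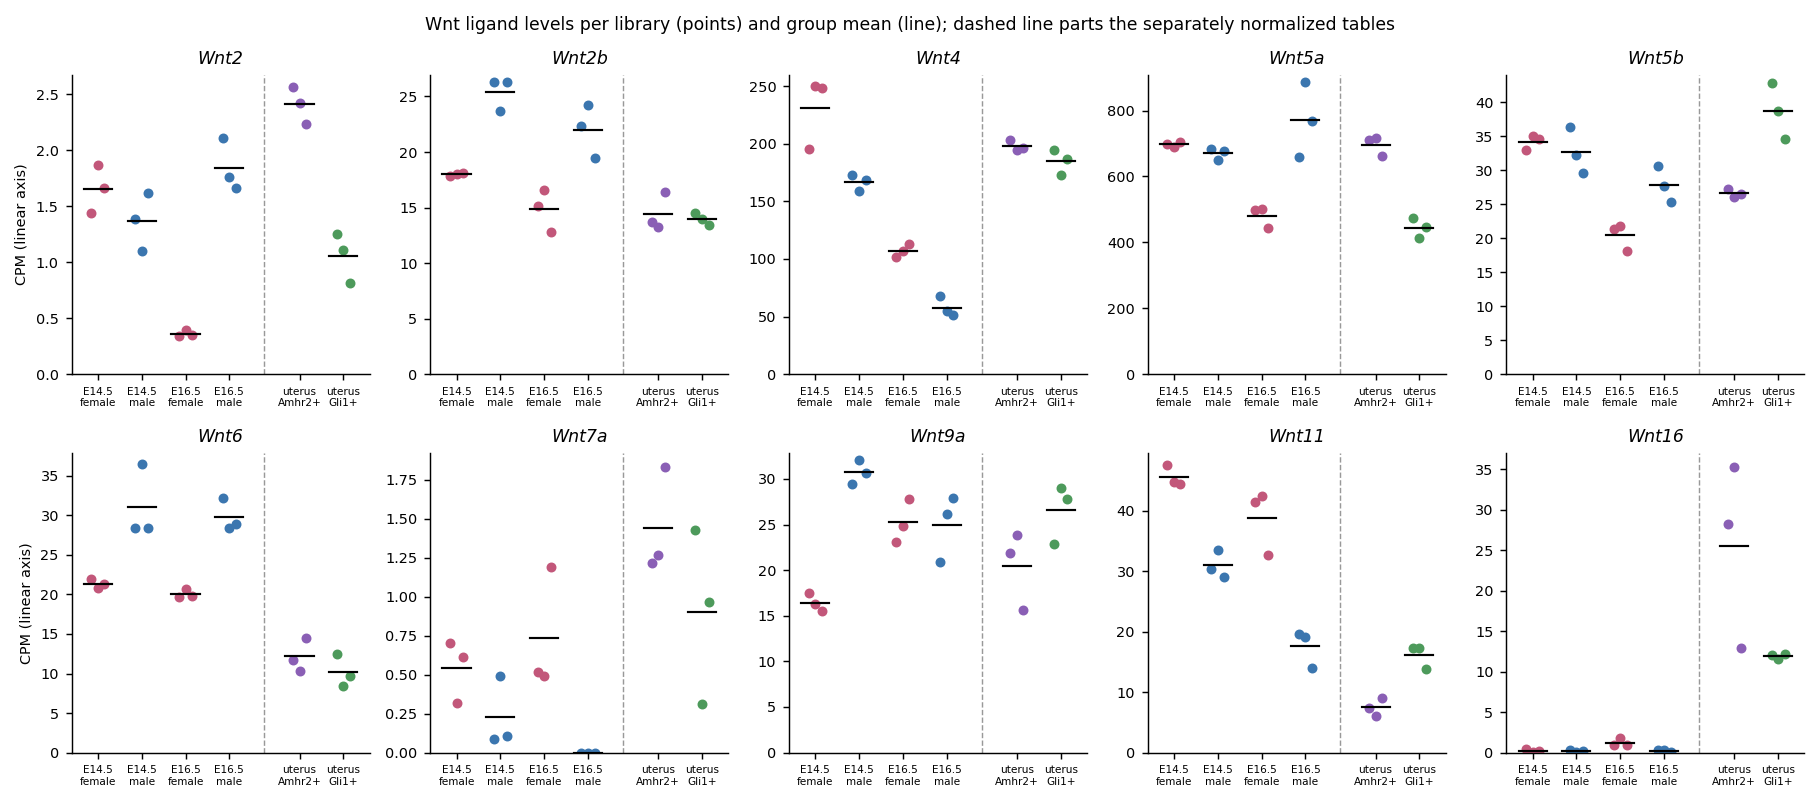
Each panel shows 1 ligand, with CPM on a linear axis from 0, 1 point per library and a line at the group mean (n = 3 per group), and with the uterine groups to the right of the dashed line. Wnt4 and Wnt11 were higher in females at both fetal ages, Wnt2 dropped to 0.343 to 0.394 CPM in E16.5 females alone among the fetal groups, and Wnt16 was above 11 CPM only in the uterus.

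The first comparison asked how female and male mesenchyme differed at E14.5, around the onset of duct remodelling. Wnt11 and Wnt4 were higher in females, and Wnt9a, Wnt6 and Wnt2b were higher in males. By edgeR's quasi-likelihood test with Benjamini-Hochberg adjustment over all genes, at an adjusted p under 0.05, 5 of 10 members passed, 2 higher and 3 lower in females. Of all genes tested, 6.28% passed, 2.59% higher and 3.69% lower in females. The median size of the log2 difference was 0.49 over the members and 0.14 over all genes. The percentage over all genes rests on few libraries: leaving out 1 library moved the count of genes from 1121 to between 553 (without E14.5 male replicate 3) and 1678, and it fell by more than 1.5 times without each of the 3 female libraries and without male replicates 2 and 3.

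At E16.5, 9 of 10 members passed the same test, against 27.3% of all genes (13.2% higher and 14.1% lower in females). Wnt4, Wnt11, Wnt16 and Wnt7a were higher in females, and Wnt2, Wnt2b, Wnt5a, Wnt5b and Wnt6 were higher in males. Wnt9a was the member that did not pass. The median size of the log2 difference was 0.78 over the members and 0.21 over all genes.

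From E14.5 to E16.5, 7 of 10 members passed in females (39.6% of all genes, with 21% higher and 18.6% lower at E16.5). Wnt16 and Wnt9a rose, and Wnt2, Wnt4, Wnt5b, Wnt5a and Wnt2b fell. In males 4 of 10 passed (23.3% of all genes, with 13.1% higher and 10.2% lower at E16.5), and these 4, Wnt4, Wnt11, Wnt7a and Wnt9a, all fell. When only the 6 male libraries were fitted, Wnt7a failed the low-count filter and Wnt9a missed the threshold. The Wnt9a call was also lost in 5 of 6 fits with a library left out. The age comparisons use the same libraries as the sex comparisons, so the 2 kinds of difference are not independent. The share of all genes that rose depends on the scaling: with library size alone in place of TMM, 1847 genes rose and 2641 fell in males, against 2340 and 1828 with TMM, and in females 3130 rose and 3924 fell, against 3746 and 3322.

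**Figure D3:**
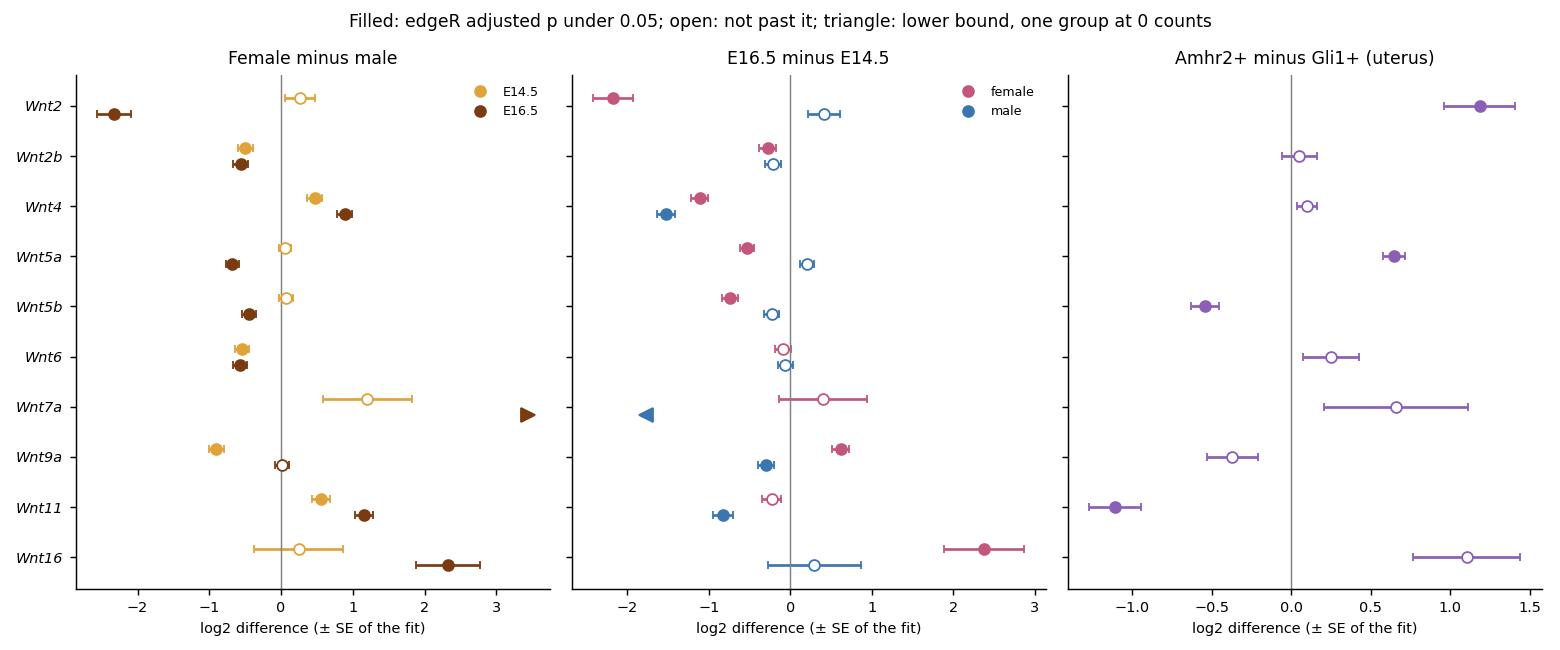
Points give the fitted log2 difference and its standard error for each ligand, in females minus males at both ages (left), E16.5 minus E14.5 in both sexes (middle) and uterine Amhr2+ minus Gli1+ cells (right), with filled points for an edgeR adjusted p under 0.05. Triangles for Wnt7a mark lower bounds, since E16.5 males had 0 counts, and the other E16.5 sex differences reach from -2.33 for Wnt2 to 2.33 for Wnt16.

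Among the ligands best known for the non-canonical branch, Wnt5a (ENSMUSG00000021994, chr14:28504750-28527448, + strand) was the most abundant. Its level was 697, 690 and 705 CPM in the 3 E14.5 female libraries, 684, 650 and 676 in E14.5 males, 500, 500 and 445 in females of E16.5 and 659, 886 and 769 in males of that age. E16.5 females were below every other fetal library, and the E16.5 male libraries were the most spread. The sex difference at E14.5 was 0.06 on the log2 scale (SE 0.09, edgeR adjusted p = 0.794). At E16.5 females were lower by a log2 difference of -0.68 (SE 0.09, edgeR adjusted p = 2.64e-05), a 1.60-fold difference. Wnt5a fell with age in females, by 0.53 on the log2 scale (SE 0.09, edgeR adjusted p = 0.000204). In males the age difference was 0.20 (SE 0.09, edgeR adjusted p = 0.109), and it passed without E16.5 male replicate 1 (0.30, edgeR adjusted p = 0.00719) and with no filter on low counts (0.23, edgeR adjusted p = 0.0397). A transcript on the opposite strand inside the gene, RP24-345B5.3, was at 15.01 to 21.7 CPM, and the fetal kit does not mark strand.

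In the uterus Wnt5a was higher in Amhr2+ cells, at 710, 716 and 661 CPM against 475, 415 and 446 in Gli1+ cells. The groups did not overlap. The log2 difference was 0.64 (SE 0.07, edgeR adjusted p = 0.000463), or 1.56-fold.

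Wnt5b (ENSMUSG00000030170, chr6:119432531-119544347, - strand), the close relative of Wnt5a, was at 32.97, 35.0 and 34.5 CPM in E14.5 females and 36.4, 32.2 and 29.5 in E14.5 males. The E16.5 libraries had 21.3, 21.8 and 18.1 CPM in females and 30.7, 27.7 and 25.3 in males. As for Wnt5a, E16.5 females were the lowest fetal group, with no overlap with the others. The log2 difference between the sexes was 0.07 (SE 0.10, edgeR adjusted p = 0.778) at E14.5 and -0.45 (SE 0.10, edgeR adjusted p = 0.00251) at E16.5. It fell with age in females by 0.74 on the log2 scale (SE 0.10, edgeR adjusted p = 2.4e-05). In males the age difference was -0.23 (SE 0.09, edgeR adjusted p = 0.0961), which passed without E16.5 male replicate 1 (-0.30, edgeR adjusted p = 0.0369).

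Unlike Wnt5a, Wnt5b was lower in uterine Amhr2+ cells, at 27.2, 26.0 and 26.5 CPM against 42.8, 38.8 and 34.6 in Gli1+ cells, a log2 difference of -0.54 (SE 0.09, edgeR adjusted p = 0.0035). Fbxl14, an F-box gene on the opposite strand within Wnt5b, was at 40.4 to 54.7 CPM in the fetal groups.

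Wnt11 (ENSMUSG00000015957, chr7:98835131-98855195, + strand), whose upstream sequence is printed above, was higher in females at both ages. It was at 47.5, 44.8 and 44.4 CPM in E14.5 females and 30.5, 33.5 and 29.1 in E14.5 males. The E16.5 libraries had 41.5, 42.5 and 32.6 CPM in females and 19.6, 19.2 and 13.9 in males. Females and males did not overlap at either age. The log2 difference was 0.56 (SE 0.12, edgeR adjusted p = 0.0126) at E14.5 and 1.15 (SE 0.12, edgeR adjusted p = 5.22e-06) at E16.5, or 1.47-fold and 2.22-fold. The E14.5 call was lost without female replicate 1 (edgeR adjusted p = 0.061) or male replicate 3 (0.0748). With age it fell in males by 0.83 on the log2 scale (SE 0.12, edgeR adjusted p = 0.000164), and in females the difference of -0.23 did not pass (SE 0.12, edgeR adjusted p = 0.147).

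In the uterus the order of Wnt11 was opposite to that of Wnt5a. It was at 7.39, 6.07 and 9.02 CPM in Amhr2+ and 17.2, 17.3 and 13.8 in Gli1+ cells, a log2 difference of -1.11 (SE 0.16, edgeR adjusted p = 0.00205) or 2.16-fold.

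Wnt4 (ENSMUSG00000036856, chr4:137277489-137299726, + strand), needed for the Müllerian duct to form, fell with age in both sexes. It was at 195, 250 and 249 CPM in E14.5 females and 173, 159 and 168 in E14.5 males. The E16.5 libraries had 101, 107 and 113 CPM in females and 67.9, 54.7 and 51.1 in males. Every E14.5 library was above every E16.5 library, and females were above males at each age. The sex difference was 0.47 (SE 0.11, edgeR adjusted p = 0.014) at E14.5 and 0.89 (SE 0.11, edgeR adjusted p = 1.73e-05) at E16.5 on the log2 scale. The E14.5 call was lost without female replicate 2 or 3 or male replicate 2 or 3 (edgeR adjusted p = 0.0588 to 0.0738). With age the level of Wnt4 fell in females by 1.11 on the log2 scale (SE 0.11, edgeR adjusted p = 1.43e-06) and by 1.53 in males (SE 0.11, edgeR adjusted p = 1.06e-07), that is 2.16-fold and 2.88-fold.

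Between the uterine populations Wnt4 was at 204, 194 and 196 CPM in Amhr2+ and 195, 173 and 187 in Gli1+ cells. The groups overlapped, and the log2 difference was 0.10 (SE 0.06, edgeR adjusted p = 0.291).

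Of the Wnt2 pair, ligands of the canonical branch, Wnt2 (ENSMUSG00000010797, chr6:17988940-18030585, - strand) had the larger sex difference at E16.5. It was scarce throughout: 1.44, 1.87 and 1.67 CPM in E14.5 females, 1.39, 1.10 and 1.62 in E14.5 males, 0.343, 0.394 and 0.354 in females of E16.5 and 2.11, 1.76 and 1.66 in males of that age. The E16.5 female values rest on 14, 16 and 14 reads and lay below all other fetal libraries. The sex difference was 0.26 (SE 0.21, edgeR adjusted p = 0.555) at E14.5 and -2.33 (SE 0.23, edgeR adjusted p = 1.68e-06) at E16.5, a 5.02-fold lower level in females. With age it fell in females by 2.17 on the log2 scale (SE 0.24, edgeR adjusted p = 4.74e-06), and the male difference was 0.42 (SE 0.20, edgeR adjusted p = 0.146). In the uterus Wnt2 was at 2.57, 2.43 and 2.237 CPM in Amhr2+ and 1.25, 1.11 and 0.814 in Gli1+ cells, a log2 difference of 1.18 (SE 0.22, edgeR adjusted p = 0.00668).

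Wnt2b (ENSMUSG00000027840, chr3:104945272-104961921, - strand) was higher in males at both ages. E14.5 females had 17.9, 18.0 and 18.1 CPM and E14.5 males 26.3, 23.7 and 26.3. E16.5 females had 15.2, 16.6 and 12.8 CPM and E16.5 males 22.4, 24.2 and 19.49. No male library overlapped a female library of its age. The log2 difference was -0.50 (SE 0.10, edgeR adjusted p = 0.00707) at E14.5 and -0.56 (SE 0.10, edgeR adjusted p = 0.000538) at E16.5. The small fall with age in females, by 0.28 on the log2 scale (SE 0.10, edgeR adjusted p = 0.0434), was not kept under several settings. It missed the threshold without each of the E14.5 female libraries or without E16.5 female replicate 1 or 3 (edgeR adjusted p = 0.0852 to 0.184), and with no low-count filter (0.0709). In males the age difference was -0.21 (SE 0.10, edgeR adjusted p = 0.144). The uterine difference was 0.05 (SE 0.11, edgeR adjusted p = 0.773), with values of 13.2 to 16.4 CPM over the 6 libraries.

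Wnt6 (ENSMUSG00000033227, chr1:74771892-74785322, + strand), known from epithelia, was higher in males by nearly the same amount at both ages. It was at 22.0, 20.8 and 21.4 CPM in E14.5 females and 28.4, 36.5 and 28.4 in E14.5 males. The E16.5 libraries had 19.7, 20.7 and 19.8 CPM in females and 32.2, 28.4 and 28.9 in males. Every male library was above every female library. The log2 difference was -0.54 (SE 0.10, edgeR adjusted p = 0.00271) at E14.5 and -0.57 (SE 0.09, edgeR adjusted p = 0.000274) at E16.5. Neither age difference passed, with -0.09 in females (edgeR adjusted p = 0.471) and -0.06 in males (edgeR adjusted p = 0.676). The uterine libraries held 8.42 to 14.4 CPM, and their difference of 0.25 did not pass (SE 0.18, edgeR adjusted p = 0.331).

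Wnt9a (ENSMUSG00000000126, chr11:59306928-59333552, + strand) had its sex difference at E14.5. It was at 17.5, 16.2 and 15.5 CPM in E14.5 females and 29.4, 32.03 and 30.7 in E14.5 males. The E16.5 libraries had 23.1, 24.8 and 27.8 CPM in females and 20.9, 26.1 and 27.9 in males. E14.5 females were the lowest fetal group, and the sexes overlapped at E16.5. The log2 difference was -0.91 (SE 0.10, edgeR adjusted p = 6.82e-05) at E14.5, which is 1.87-fold, and 0.01 (SE 0.10, edgeR adjusted p = 0.95) at E16.5. It rose with age in females by 0.62 (SE 0.10, edgeR adjusted p = 0.000271). In males it fell by 0.30 (SE 0.10, edgeR adjusted p = 0.0447), a call lost without each E14.5 male library or without E16.5 male replicate 1 or 2 (edgeR adjusted p = 0.057 to 0.161). That call was also lost with no low-count filter (0.0548) and when only the 6 male libraries were fitted (0.101). In the uterus it was at 21.9, 23.8 and 15.7 CPM in Amhr2+ and 22.8, 29.0 and 27.8 in Gli1+ cells, which overlapped (log2 difference -0.37, SE 0.16, edgeR adjusted p = 0.13).

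Wnt7a (ENSMUSG00000030093, chr6:91363981-91411363, - strand), the ligand of the Müllerian duct epithelium, was close to the detection limit in the fetal libraries. E14.5 females had 21, 8 and 17 reads (0.701, 0.319 and 0.615 CPM), and E14.5 males 2, 21 and 6 reads (0.0841, 0.493 and 0.108 CPM). E16.5 females had 21, 20 and 47 reads (0.514, 0.492 and 1.19 CPM). The 3 E16.5 male libraries had 0 reads, which allows up to 0.0485 to 0.0801 CPM at a floor of 3 counts per library (counting error only). Against the mean of these floors, the female level at E16.5 was at least 10.9-fold higher (edgeR adjusted p = 0.000337). That bound was 7.50-fold without E16.5 female replicate 3. The E14.5 male level was at least 3.41-fold higher than that of E16.5 males (edgeR adjusted p = 0.00873), a bound that rests on male replicate 2 and was 1.43-fold without it (edgeR adjusted p = 0.0297). The 2 reads of E14.5 male replicate 1 lie under that library's own floor of 0.126 CPM. Fitted with only the 6 male libraries, Wnt7a failed the low-count filter. The E14.5 sexes overlapped and did not pass (log2 difference 1.2, SE 0.62, edgeR adjusted p = 0.335), nor did the age difference in females (0.40, SE 0.54, edgeR adjusted p = 0.586).

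Of 12 duct epithelium markers, 3 passed between the sexes at E16.5, which is near the 27.3% of all genes, and these 3, Krt18, Krt7 and Wnt9b, were lower in females. The summed level was 27.9 to 37.9 CPM in E16.5 females and 38.8 to 48.4 in E16.5 males, with most of it from Krt18 and from Krt19, which is also a mesothelial marker. Epcam was at 2.995 and 3.42 CPM, and the duct factor Pax8 was the other way round, at 1.23 in those females and 0.827 in the males (edgeR adjusted p = 0.13). Their part in the Wnt7a difference was not tested. In the uterus Wnt7a was at 1.22, 1.27 and 1.83 CPM in Amhr2+ and 1.43, 0.310 and 0.965 in Gli1+ cells, which overlapped (log2 difference 0.66, SE 0.45, edgeR adjusted p = 0.326). There the epithelial sum was 76.6 to 78.9 CPM in Amhr2+ against 35.7 to 48.8 in Gli1+ cells. Of the 9 tested markers 4 passed, against 23.9% of all genes, and these 4 were all higher in Amhr2+ cells. Their part in the uterine ligand differences was not tested.

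Wnt16 (ENSMUSG00000029671, chr6:22288227-22298522, + strand) was scarce in the fetal libraries. It was at 0.401, 0.0796 and 0.181 CPM in E14.5 females and 0.295, 0.117 and 0.198 in E14.5 males. The E16.5 libraries had 0.955, 1.75 and 0.884 CPM in females (39, 71 and 35 reads) and 0.339, 0.294 and 0.113 in males. E16.5 females were above all other fetal libraries. The sex difference at E16.5 was 2.33 on the log2 scale (SE 0.45, edgeR adjusted p = 0.00107), and that at E14.5 was 0.25 (SE 0.62, edgeR adjusted p = 0.888). Wnt16 rose with age in females by 2.38 (SE 0.49, edgeR adjusted p = 0.00141), a value that became 3.15 without E14.5 female replicate 1. In males the age difference was 0.29 (SE 0.57, edgeR adjusted p = 0.755).

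In the uterus Wnt16 was at 28.3, 35.3 and 12.9 CPM in Amhr2+ and 12.03, 11.6 and 12.2 in Gli1+ cells. All 3 Amhr2+ libraries were above the Gli1+ libraries, replicate 3 only narrowly. The log2 difference of 1.10 did not pass (SE 0.34, edgeR adjusted p = 0.058). It passed without Amhr2+ replicate 3 (1.42, edgeR adjusted p = 0.000169), with library size alone as scaling (1.19, edgeR adjusted p = 0.0439), without robust estimation (edgeR adjusted p = 0.0361) and in DESeq2 (adjusted p = 0.0302). Amhr2+ replicate 3 was also the lowest of its group in the smooth muscle genes Acta2, at 605 CPM against 876 and 1026, and Myh11, at 46.5 against 93.2 and 112. Outside smooth muscle, the same library was lowest in Lum, at 610 CPM against 784 and 889, and highest in Epcam, at 8.37 against 6.35 and 5.10. The part of smooth muscle RNA in the Wnt16 level was not tested.

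An interaction term asked if the sex difference was the same at E14.5 and E16.5, and 6 of 10 members passed it, against 10% of all genes (4.66% towards females and 5.36% towards males). The sex difference moved towards males for Wnt2 (log2 change -2.59, SE 0.31, edgeR adjusted p = 6.09e-05), Wnt5a (-0.74, SE 0.12, edgeR adjusted p = 0.000959) and Wnt5b (-0.51, SE 0.14, edgeR adjusted p = 0.023). It moved towards females for Wnt9a (0.92, SE 0.15, edgeR adjusted p = 0.00064), Wnt11 (0.60, SE 0.17, edgeR adjusted p = 0.0399) and Wnt7a (edgeR adjusted p = 0.0199, with no size given because E16.5 males had 0 counts). The Wnt2, Wnt5a and Wnt9a calls held when any 1 library was left out. The Wnt5b call was lost without E14.5 female replicate 2 or 3, E14.5 male replicate 2 or 3 or E16.5 female replicate 3 (edgeR adjusted p = 0.0521 to 0.0704), and the Wnt7a call without E16.5 male replicate 3 (0.0534). The Wnt11 call was kept in only 3 of the 12 fits without a library, those without E16.5 female replicate 3 or E16.5 male replicate 1 or 2. In the other 9 its edgeR adjusted p was 0.0541 to 0.116, and with library size alone it was 0.0531.

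For Wnt4, whose sex difference was 0.47 at E14.5 and 0.89 at E16.5, the interaction of 0.42 did not pass (SE 0.15, edgeR adjusted p = 0.0996). It passed without E16.5 male replicate 1 (0.55, edgeR adjusted p = 0.00789). For Wnt16 the interaction of 2.08 did not pass (SE 0.78, edgeR adjusted p = 0.111), but it passed with the replicate number as a block within age (2.23, edgeR adjusted p = 0.0231). Wnt2b (-0.07, edgeR adjusted p = 0.84) and Wnt6 (-0.03, edgeR adjusted p = 0.928) were the other two that did not pass. Without E16.5 male replicate 1 the count over all genes went from 1790 to 2687.

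Among the E16.5 males, replicate 1 lay at the end of the range in Wnt4, Wnt5a and the smooth muscle gene Acta2. It was also the highest of the 3 males for Wnt2, Wnt5b, Wnt6, Wnt11 and Wnt16, and the lowest for Wnt9a. For Wnt2b it was the middle library, and Wnt7a had 0 reads in all 3. For Wnt11 replicate 3 lay apart, at 13.9 CPM against 19.6 and 19.2. Replicate 1 had the highest Wnt4 (67.9 CPM) and the lowest Wnt5a (659 CPM) of the 3 males, and Acta2 was at 1245 CPM there against 1935 and 2245. Smooth muscle markers moved with sex as a group: their summed level was 302 to 326 CPM in E14.5 females, 607 to 888 in E14.5 males, 465 to 567 in females of E16.5 and 1716 to 2893 in their male counterparts. Of the 6 markers, 3 passed at E14.5 and 5 at E16.5, all lower in females, and none was under 0.1 CPM in any group. Of all genes, 6.28% passed at E14.5 and 27.3% at E16.5, and the marker counts that follow stand against the same shares. Mesothelial markers, of which 3 of 6 passed at E16.5, were also lower in females, with sums of 29.4 to 70.8 CPM against 72.8 to 99.0. Of 6 tested gonad markers, 1 passed at E14.5 and 3 at E16.5 (Nr5a1, Foxl2 and Fst), all lower in females, with E16.5 sums of 47.5 to 52.4 CPM against 65.3 to 73.8. Immune markers went the other way, with 2 of 7 at E14.5 and 4 of 7 at E16.5 passing, all higher in females. The immune sums overlapped at E16.5, at 30.0005 to 75.1 CPM in females and 13.4 to 47.3 in males. At E14.5 they were 59.05 to 68.2 and 42.8 to 59.03. Of 10 mesenchyme markers, 3 passed at E14.5 (2 higher, 1 lower in females) and 8 at E16.5 (5 higher, 3 lower). Of 6 tested endothelium markers, 2 passed at E14.5, both higher in females, and 4 at E16.5, 2 in each direction. The part of all these lists in the ligand differences was not tested. Red blood cell genes were high in E14.5 female replicate 3, with a sum of 949 CPM, and the E14.5 sex calls of Wnt2b, Wnt6, Wnt9a and Wnt11 held without that library. For Wnt4 the log2 difference there was 0.42 (edgeR adjusted p = 0.0738), against 0.47 with all libraries, and its call was lost likewise without 3 other E14.5 libraries, as given above.

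In the uterus 4 of 10 members passed between Amhr2+ and Gli1+ cells, against 23.9% of all genes (10.1% higher and 13.7% lower in Amhr2+ cells). Wnt5a and Wnt2 were higher and Wnt5b and Wnt11 lower in Amhr2+ cells, with the values given above. Mesenchyme markers summed to 27663 to 29664 CPM in Amhr2+ and 57700 to 65027 CPM in Gli1+ cells, mostly from Col1a1, Col1a2 and Col3a1. Of 10 mesenchyme markers, 6 passed, all lower in Amhr2+ cells. Pdgfra was at 579 and 564 CPM and Pdgfrb at 505 and 500 in Amhr2+ and Gli1+ cells. Thy1, at 48.7 and 39.0, and Twist1, at 25.3 and 20.2, had higher means in Amhr2+ cells. Smooth muscle markers summed to 1122 to 1769 and 2121 to 2340 CPM. Of 6 endothelium markers tested, 3 passed, all lower in Amhr2+ cells. The part of these lists was not tested. With library size alone in place of TMM, 2849 genes were higher and 1640 lower in Amhr2+ cells, against 1642 and 2224, while the 4 members passed under both. Without 1 library the count of 3866 genes fell to between 1949 (without Amhr2+ replicate 1) and 3521, and it was 2521 without Gli1+ replicate 1.

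The counts for the pathway genes below stand against the share of all genes that passed, which was 6.28% for sex at E14.5, 27.3% for sex at E16.5, 39.6% for age in females, 23.3% for age in males, 10% for the interaction and 23.9% in the uterus. The median log2 difference over all genes was -0.01 for sex at E14.5, 0.01 for sex at E16.5 and -0.0017 in the uterus.

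The other 9 Wnt genes of the mouse were low in every fetal group, and 3 passed the filter. Wnt10a was at 0.134 CPM in E14.5 females and 0.652 in E14.5 males, and at 0.305 and 1.44 CPM at E16.5 (log2 differences -2.32 and -2.21, edgeR adjusted p = 0.00231 and 3.31e-05). In the uterus Wnt7b alone of the 9 was tested, at 3.78 CPM in Amhr2+ and 5.55 in Gli1+ cells, and it did not pass (edgeR adjusted p = 0.218). Of the 4 genes for export of Wnt proteins, 0 passed between the sexes at either age or in the uterus. Wls, the export receptor, fell with age in both sexes, by 0.30 (females) and 0.34 (males) on the log2 scale (edgeR adjusted p = 0.00752 and 0.00499).

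Among the 12 Frizzled and Lrp receptors, 3 passed between the sexes at E14.5 (2 higher, 1 lower in females) and 4 at E16.5 (3 higher, 1 lower), the latter near the share of all genes. The list's median was 0.03 and 0.10 on the log2 scale. Fzd10 was higher in females at both ages, by 0.89 and 0.76 on the log2 scale (edgeR adjusted p = 0.00302 and 0.00211). Fzd7 was lower in females at E16.5 (-0.35, edgeR adjusted p = 0.00587) and was the receptor that passed the interaction (-0.50, edgeR adjusted p = 0.0134). In the uterus 3 of 12 passed, again near the share of all genes, all lower in Amhr2+ cells (list median -0.0058), led by Fzd4 (-1.12, edgeR adjusted p = 0.00176) and Fzd7 (-0.66, edgeR adjusted p = 0.000125).

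Of 11 co-receptors and planar polarity genes, 2 passed between the sexes at E14.5 and 5 at E16.5 (3 higher, 2 lower in females), with list medians of 0.02 and 0.0039. Ror1 and Ror2, co-receptors for Wnt5a, were higher in E16.5 females, at 163 against 91.6 CPM and 251 against 152 CPM (log2 differences 0.84 and 0.73, edgeR adjusted p = 9.85e-07 and 1.68e-06). Vangl1, a core polarity gene, was lower, at 29.0 against 64.7 CPM (-1.16, edgeR adjusted p = 3.24e-09). The level of Wnt5a itself was lower in those females. In the uterus Ror2 was the 1 of 11 that passed, lower in Amhr2+ cells (-0.35, edgeR adjusted p = 0.0473).

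Secreted antagonists, most of which bind Wnts or their receptors, passed in 7 of 11 cases at E14.5 (4 higher, 3 lower in females) and in 6 of 11 at E16.5 (4 higher, 2 lower). The list's median was -0.04 at E14.5 and -0.28 at E16.5, where its sign was opposite to that of most of its calls. At E16.5 Sfrp4 was at 24.5 CPM in females against 7.14 in males (1.78, edgeR adjusted p = 9.11e-07), Sfrp2 at 156 against 76.2 (1.04, edgeR adjusted p = 1.83e-06) and Frzb at 17.8 against 6.49 (1.46, edgeR adjusted p = 7.82e-06). The 2 that were lower in females, named here after their values were seen, were Sfrp1, at 478 against 657 CPM (-0.46, edgeR adjusted p = 0.00468), and Sostdc1 at 5.51 against 9.33 (-0.76, edgeR adjusted p = 0.00539). In the uterus 6 of 8 passed, 2 higher and 4 lower in Amhr2+ cells (list median -0.36), with Sfrp1 at 113 against 227 CPM (-1.01, edgeR adjusted p = 0.000125).

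R-spondins raise the Wnt response by keeping Frizzled receptors on the cell surface. Of the 9 genes of that axis, 2 passed between the sexes at E14.5, both lower in females, and 4 at E16.5, 2 in each direction, with list medians of -0.34 and -0.06. At E16.5 Rspo2 was at 15.9 CPM in females and 1.34 in males (log2 difference 3.58, edgeR adjusted p = 4.61e-08), and it rose in females from 0.444 CPM at E14.5. Rspo3 was lower in females at both ages (-0.51 and -0.77, edgeR adjusted p = 0.000176 and 2.54e-07). In the uterus Rspo3 was at 18.8 CPM in Amhr2+ and 64.8 in Gli1+ cells (-1.79, edgeR adjusted p = 3.06e-05), and 4 of the 8 genes tested passed, 2 in each direction (list median -0.23).

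Feedback targets and TCF factors, read as genes that canonical signalling is known to act on, passed in 3 of 10 cases at E14.5, all higher in females, and in 5 of 10 at E16.5, 3 higher and 2 lower, with a list median of 0.21 at both ages. Tcf7 was at 65.2 CPM in E14.5 females and 39.6 in males (0.72, edgeR adjusted p = 4.98e-05). With age 8 of 10 passed in females, 7 of them lower at E16.5, and 4 of 10 in males, all lower (list medians -0.51 and -0.32). Lef1 fell by 1.02 in females and by 1.07 in males on the log2 scale (edgeR adjusted p = 6.37e-06 and 6.79e-06). In the uterus 6 of 9 passed, 4 higher and 2 lower in Amhr2+ cells (list median 0.46), with Axin2 at 369 against 243 CPM (0.60, edgeR adjusted p = 0.00157) and Nkd2 at 201 against 120 (0.75, edgeR adjusted p = 0.000157).

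For each ligand with a mean of at least 10 CPM in some fetal group, the genes of most similar pattern were sought by the root mean square difference of centred log2 CPM over the 12 fetal libraries, among 10456 genes. Wnt5a was nearest to Has2 (0.0708), followed by Cped1 and Bcl2, and Wnt4 to Kif26b (0.168), Ecm1 and Dusp9. Wnt11 was nearest to Igfbp5 (0.139), which ranged between group means of 1965 CPM (E16.5 males) and 4491 CPM (E14.5 females), and then to Tmem200a and Astn2. Wnt9a was nearest to Aldh1a2 (0.149), which makes retinoic acid. Wnt5b was nearest to Itpr3 (0.098), Wnt6 to Hs6st1 (0.112) and Wnt2b to Tbc1d24 (0.12). These are descriptions over libraries that share group, depth and scaling.

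**Figure D4:**
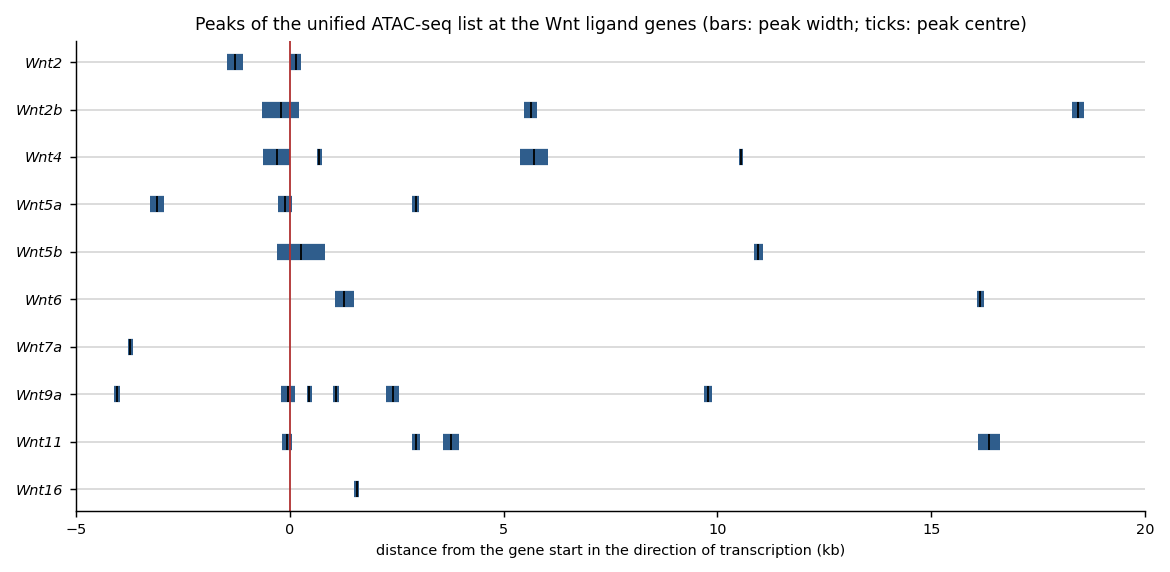
Blue bars mark peaks of the unified ATAC-seq list from 5 kb before to 20 kb after each ligand gene's start, drawn to scale in the direction of transcription, with a tick at each peak's centre and a red line at the start. Peaks lay over the start of 6 genes, whereas the nearest peaks of Wnt6, Wnt7a and Wnt16 were centred at 1278, -3726 and 1564 bp from the gene's start.

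The unified list had 71040 entries, of which the middle one by width measured 233 bp. A peak lay within 1 kb of an annotated transcript start for 8 of 10 members, against 89.13% of the 14577 tested fetal genes that could be matched, and Wnt6 and Wnt7a were the members without one. A peak lay directly over a start for 6 of 10, against 81.26% of genes, the others being Wnt2, Wnt6, Wnt7a and Wnt16. Within 5 kb all 10 members had a peak, as did 94.08% of genes. The peak nearest to a Wnt6 start was 1056 bp away (chr1:74772948-74773392), and that of Wnt7a 3673 bp (chr6:91415036-91415141). The widest peak over a member's start, 1135 bp, was that of Wnt5b (chr6:119543511-119544645), and Wnt5b also had the most peaks within 5 kb of the gene, 10, over its long body. The list gives no height and no sample, so differences in accessibility between the sexes or ages were not analysed here.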

How the data were processed

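RNA was measured in 18 libraries (PicoPure extraction; non-stranded TruSeq for fetal, stranded TruSeq mRNA for uterine cells, per the labels' protocols). The authors deposited raw read counts per gene, 1 table for the fetal and 1 for the uterine libraries, and 1 unified list of ATAC-seq peak positions, which gives no value per sample. The submitters' processing notes name STAR 2.5, featureCounts, Subread 1.5.0-p1, Bowtie 1.2, SAMtools 1.3.1, Picard, bedtools 2.24.0, MACS2 2.1.1 and build mm10, with no roles. The annotation and the use of strand in counting are not given in the sources used here, so overlapping and antisense genes are uncertain. The members and lists were chosen with earlier results of these data known.

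Each table was fitted by itself in edgeR 4.0.16 (R 4.3.3): filterByExpr, TMM, robust quasi-likelihood fit of group means, Benjamini-Hochberg threshold 0.05, with the fetal groups in 1 model of 12 libraries. The script was tested on simulated data. SE is the log2 difference divided by the square root of F. CPM used TMM-scaled library sizes, and 3 counts, the floor, equalled 0.0485 to 0.126 CPM in fetal and 0.0778 to 0.102 in uterine libraries. Genes of other lists were named by smallest p, at most 4 per list and comparison. Alternatives were DESeq2 1.42.0, library size alone, no low-count filter, no robust estimation, only the libraries compared, each library left out, and the replicate number as a block. Same-numbered females and males deviated together at E16.5 (correlations 0.284, 0.115 and 0.396), though no label ties a number to a litter. The main tests did not pair libraries, and the replicate number entered only as a block among the alternatives. Replicates of each group differed by more than sampling noise. Sequences and promoters are from RefSeq (GRCm38.p6), gene models from GENCODE vM21, both on the build of the files.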

Additional observations from a re-analysis of the deposited data

Results flagged for a closer look

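The sex difference at E16.5 differed from that at E14.5 for 6 of 10 ligands in the interaction test of edgeR (adjusted over all genes). Of all genes tested, 10% passed that test. Wnt2 (edgeR adjusted p = 6.09e-05) had a sex difference of 0.26 on the log2 scale (SE 0.21) at E14.5 and was 5.02-fold lower in females at E16.5, with 3 of 3 female libraries below all males. Wnt5a (edgeR adjusted p = 0.000959) and Wnt5b (edgeR adjusted p = 0.023) went from 0.06 and 0.07 on the log2 scale at E14.5 to -0.68 and -0.45 at E16.5. For Wnt9a (edgeR adjusted p = 0.00064) the order was the opposite, with a difference of -0.91 at E14.5 and of 0.01 at E16.5. Wnt7a (edgeR adjusted p = 0.0199) had 0 reads in the 3 E16.5 male libraries, and its call was lost without replicate 3 of them (0.0534). Wnt11 (edgeR adjusted p = 0.0399) passed narrowly, and 9 of 12 fits with a library left out did not keep it (edgeR adjusted p = 0.0541 to 0.116). The Wnt5b call was lost in 5 of the same 12 fits (edgeR adjusted p = 0.0521 to 0.0704).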

How the results depend on the processing

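Of 758 values of single ligands under the alternatives, 698 kept direction and side of the threshold, 37 lost the call, 9 gained it and 14 turned sign, each of the last with 1 library left out and none a call. Leaving out 1 library gave 3 to 5 ligands past the threshold for sex at E14.5 (3 without E14.5 male replicate 3), 9 at E16.5, 6 to 7 for age in females, 3 to 5 for age in males, 4 to 7 for the interaction and 4 to 5 in the uterus. Fitting only the 6 male libraries gave 2 for age in males, where Wnt7a failed the filter, and in the same setting Wnt16 was not tested for sex at E14.5. Over all genes the counts ranged from 553 to 1678 for sex at E14.5, from 1335 to 2687 for the interaction and from 1949 to 3521 in the uterus.

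Ranges that crossed 0 on leaving out a library were -0.0031 to 0.146 for Wnt5b and -0.5235 to 0.6101 for Wnt16 (sex at E14.5), -0.1005 to 0.0916 for Wnt9a (sex at E16.5), -0.1298 to 0.628 for Wnt7a (age in females), -0.1273 to 0.071 for Wnt6 and -0.0312 to 0.7355 for Wnt16 (age in males), -0.1677 to 0.0293 for Wnt2b and -0.163 to 0.0355 for Wnt6 (interaction), and -0.0459 to 0.1156 for Wnt2b (uterus). The cause was not tested. Low counts limit Wnt7a, Wnt16 and Wnt2 in the fetal table.

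With the replicate number as a block within age, the Wnt16 interaction passed (2.23, edgeR adjusted p = 0.0231), and no other ligand's call changed. A block within sex lost the age calls of Wnt2b in females (edgeR adjusted p = 0.0688) and Wnt9a in males (0.057), and a block in the uterus kept 4 ligands. The E14.5 pairs correlated at 0.073, 0.05 and 0.051, each library most with its own number. The uterine pairs correlated at 0.002, 0.221 and 0.243. Uterine Amhr2+ replicate 1 correlated more with Gli1+ replicate 2 (0.128) than with its own number. The labels do not say if same-numbered libraries shared a litter or a preparation, and this was not tested.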
